A study of Mus musculus with 18 samples.

Results

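CD69+ MHC I high thymocytes of HoilΔCd4 mice were compared directly with those of Sharpin-cpdm mice, 3 mice a side, without wild type (WT) in the contrast. The members are the 6 samples that the labels place in the MHC I high fraction of these genotypes, out of 18 samples in the series. Of 27179 genes counted, the 12798 with at least 0.5 CPM (counts scaled to the size of the library) in 3 samples, after predicted genes, chromosome Y genes and Xist had been removed, were tested.

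The linear ubiquitin chain assembly complex (LUBAC) joins ubiquitin head to tail and is built from HOIP, the catalytic subunit encoded by Rnf31, HOIL-1, encoded by Rbck1, and SHARPIN. Linear chains recruit the IKK complex and so carry signals from TNF receptor family members and other receptors to NF-κB, and they restrain cell death downstream of TNF receptor 1. Thymocytes that have just been positively selected carry CD69 and then raise MHC I on their surface as they mature towards egress, a period in which NF-κB, interferon and interleukin-7 signals act on them.

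The series profiled MHC I low and MHC I high CD69+ thymocytes of WT, HoilΔCd4 and Sharpin-cpdm mice by RNA sequencing, with 3 mice of each genotype. HoilΔCd4 mice carry a floxed Rbck1 that Cd4Cre removes, so HOIL-1 is lost in the T lineage from about the double-positive stage and is kept by the other cells of the thymus. In Sharpin-cpdm mice the loss of SHARPIN is not limited to T cells, and animals with advanced skin lesions were avoided. The cpdm mutation arose on C57BL/Ka and was backcrossed to C57BL/6, whereas the floxed Rbck1 allele was made in C57BL/6-derived cells, and ages are not given in the sources used here. The contrast therefore differs in the gene lost, in the cells that lost it and in the strain around the mutation, and these cannot be told apart. The sort had gated out CD25+ and CD44+ cells and those of other lineages.

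Between 10577966 and 13408977 reads were counted in the HoilΔCd4 and between 14128988 and 16078502 in the Sharpin-cpdm samples. By Xist and chromosome Y transcripts each side held 1 female and 2 male mice, and the sample of HoilΔCd4 mouse 2 had 64.6 CPM of Xist beside chromosome Y transcripts, against 2.58–7.49 CPM in the other male samples. This sample also kept the most Rbck1 (8.94 CPM), and whether RNA of another sample is in it was not tested. All 3 WT mice showed the female pattern (Xist 3197–4015 CPM). Markers of B cells summed to 146.5–174.3 CPM in HoilΔCd4 and 159.8–178.3 CPM in Sharpin-cpdm samples, and those of myeloid and dendritic cells to 25.5–36 and 26.4–30.8 CPM, with Cd14, Siglech, S100a8 and S100a9 at 0. Those of thymic epithelial cells summed to 17.3–17.8 and 12.7–16 CPM, without overlap, with Krt14 and Foxn1 at 0. None of these 3 lists held a called gene, and 4 of 9, 6 of 15 and 4 of 9 markers had passed the filter. Markers of γδ and innate-like T cells summed to 255.6–292.5 and 231.4–251.9 CPM, with Trgc1 and Trgc2 called higher in HoilΔCd4 cells and 0 called lower. Most of these sums was Il2rb (153.6–165.5 and 122.5–140.5 CPM). The markers moved in both directions. Trdc, Sox13 and Il2rb also lay higher in every HoilΔCd4 sample. Zbtb16 (1.34–2.2 against 2.71–3.05 CPM) and Klrb1c (0–0.152 against 0.286–0.445 CPM) lay lower. Markers of double-positive thymocytes summed to 2189–2483 and 2189–2397 CPM, with Cd8a lower. Markers of mature single-positive cells summed to 4720–5008 and 5243–5493 CPM, with Il7r, Ccr7 and H2-K1 lower and Cd69 higher. Cd69 does not rise with maturation here, as WT samples held 382.9–430.1 CPM in MHC I low and 113.9–138.9 CPM in MHC I high cells. WT levels of Il7r also fell between these fractions, from 367.2–393.9 to 280.5–294.5 CPM, while those of Ccr7 and H2-K1 rose. In these bulk samples fewer cells of a type and less RNA per cell cannot be told apart, and the part of these markers in the results was not tested.

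Between the mutants 861 genes differed at an adjusted p under 0.05 (limma, Benjamini-Hochberg over all genes tested), which is 6.73% of those tested. Of these, 475 were higher (3.71%) and 386 lower (3.02%) in HoilΔCd4 cells. Most of the differences were small, as 599 of the genes differed by less than 1.5-fold and 124 by at least 2-fold. Of the genes with at least a 2-fold difference, 80 were higher and 44 lower in HoilΔCd4 cells. The median log2 fold change over all genes tested was 0.001, so the medians of lists are read against a value near 0. Counts of called genes in the lists below are read against 6.73%, or against 3.71% higher and 3.02% lower. Counts at an unadjusted p under 0.05 with limma are read against 2715 of the 12798 genes tested, 1418 of them higher and 1297 lower. Every log2 fold change below is HoilΔCd4 minus Sharpin-cpdm, and levels are TMM-scaled CPM of mouse 1, 2 and 3 in that order. The levels of the 2 groups did not overlap for 2926 of the 12798 genes tested, and for 799 of the 861 called. A lack of overlap alone therefore does not set a gene apart, and the genes of smallest p and largest fold were chosen to have it. The count of called genes was 324 without HoilΔCd4 mouse 2, 366 without HoilΔCd4 mouse 3, 375 without Sharpin-cpdm mouse 2 and 445 without Sharpin-cpdm mouse 3. edgeR called 518 of the same tested genes.

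The deleted gene checks the labels. Rbck1 (chromosome 2, 152316334 to 152332663, GRCm38) was at 3.72, 8.94 and 4.51 CPM in the HoilΔCd4 samples and at 260.1, 263.3 and 263.8 CPM in the Sharpin-cpdm samples. The groups were far apart, and HoilΔCd4 mouse 2, the sample with some Xist, kept the most Rbck1. WT samples held 263.5–267.6 CPM, and the log2 fold change between the mutants was −5.54 (SE 0.262, adjusted p = 4.95e-08, limma). Sharpin (chromosome 15, 76347040 to 76351110) was at 87.7, 81.2 and 82.5 CPM in HoilΔCd4 and 69.4, 74.2 and 77.9 CPM in Sharpin-cpdm cells. Its ranges did not overlap, with WT at 86.5–91.9 CPM above every Sharpin-cpdm sample, but the difference between the mutants did not pass the test (0.17, SE 0.0682, adjusted p = 0.135). In the MHC I low cells of the same mice Sharpin was lower in Sharpin-cpdm cells, at 66.4–74.7 against 95.7–116.2 CPM (0.53, adjusted p = 2.61e-05). Rnf31 had 103.8–106.4 and 114–117.6 CPM and was not called (−0.14, adjusted p = 0.161). Among the enzymes and adaptors that cut or read linear chains, Tnip1, an A20-binding inhibitor, was lower in HoilΔCd4 cells (165.1, 170 and 157.2 against 218.4, 208.7 and 208.4 CPM, log2 −0.36, adjusted p = 2.31e-05). It lies in the chromosome 11 segment described below, and its WT level of 161.1–176.4 CPM was near that of HoilΔCd4 cells. The other 8 of the 10 genes of this group were not called. The 2 calls (20%, beside 6.73% of all genes) include the deleted gene Rbck1.

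Most genes induced by NF-κB did not pass the test between the mutants. Nfkbia, which encodes the inhibitor IκBα and is itself induced by NF-κB, was at 158.9, 149.9 and 160.8 CPM in HoilΔCd4 and 159, 146.9 and 155.5 CPM in Sharpin-cpdm cells, against 198.7–204.3 CPM in WT. The mutant samples overlapped fully, with a log2 fold change of 0.04 (SE 0.0581, adjusted p = 0.779). Il2ra, which encodes the interleukin-2 receptor alpha chain CD25 used as a gate in the sort, was at 6.05–6.98 and 5.28–7.88 CPM (0.01, SE 0.176, adjusted p = 0.983), and WT samples held 11.9–15.7 CPM. Neither Nfkbie, Birc3 and Tnfaip3, which encode feedback inhibitors and a survival factor, nor Relb, an NF-κB subunit, was called (adjusted p between 0.259 and 0.93). Gadd45b was at 8.96, 5.68 and 8.74 CPM against 9.47, 9.15 and 10.6 CPM, and Tnfrsf4, which encodes the costimulatory receptor OX40, at 40.6, 31.1 and 36.3 CPM against 38.7, 50.5 and 38.8 CPM. Their estimates of −0.36 (SE 0.138, adjusted p = 0.114) and −0.32 (SE 0.107, adjusted p = 0.0692) missed the threshold, which does not show that the mutants were alike.

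Of the 23 inducible NF-κB targets tested, 1 was higher and 3 were lower in HoilΔCd4 cells, beside 3.71% and 3.02% of all genes, with a median log2 fold change of −0.07. The lower genes were Irf1 (−0.34), Ccr7 (−0.31) and Myc (−0.30, adjusted p = 0.0244), and the higher gene was Nfkb2, which encodes the p100 precursor (0.19, adjusted p = 0.0429). Irf1 lies in the chromosome 11 segment described below. The call of Nfkb2 was lost under 12 alternatives and that of Myc under 7, both of them with edgeR and with DESeq2. Nfkb2 lost it without any mouse except Sharpin-cpdm mouse 1 and WT mouse 2, and Myc without HoilΔCd4 mouse 1 or Sharpin-cpdm mouse 2 or 3. Among the 13 genes of the TNF receptor 1 death complex limma, edgeR and DESeq2 each called 0, and 2 had an unadjusted p under 0.05 with limma. Within the TNF receptor superfamily and its adaptors 4 of 22 genes were higher in HoilΔCd4 cells, beside 3.71% of all genes. None was lower (2 at an unadjusted p under 0.05 with limma, 0 called by edgeR or DESeq2), beside 3.02% of all genes. The 4 higher genes were Traf4, an adaptor (139.7, 142.1 and 123.6 against 112.9, 99.4 and 103.1 CPM, log2 0.37, adjusted p = 0.000108), and the decoy receptor genes Tnfrsf22, Tnfrsf23 and Tnfrsf26, which are neighbours on distal chromosome 7. When at least 10 counts were asked of every sample, 18 genes of this list were tested, of which 1 was higher and 2 were lower.

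Of 8 feedback genes of cytokine signalling, Cish and Socs1 were higher in HoilΔCd4 cells, beside 3.71% of all genes, and the others were not called. Cish (chromosome 9, 107296659 to 107302784), a STAT5-induced inhibitor of cytokine and T-cell receptor signalling, was at 38.1, 42.1 and 56.4 CPM in HoilΔCd4 and at 22, 19.8 and 19.7 CPM in Sharpin-cpdm cells. The HoilΔCd4 samples were also above the WT samples at 27.5–32.3 CPM, and the Sharpin-cpdm samples were below them. The log2 fold change was 1.17 (SE 0.115, adjusted p = 2.88e-08, limma). Socs1 (chromosome 16, 10783808 to 10785536), an inhibitor of JAK kinases, was at 83.1, 94.3 and 107.1 CPM against 65.2, 60 and 55.2 CPM, again without overlap. Its log2 fold change was 0.67 (SE 0.0835, adjusted p = 7.34e-06), and WT samples spanned 64.7–79.9 CPM. Both calls held under each of the 24 alternatives.

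Il7r (chromosome 15, 9506159 to 9529941), the interleukin-7 receptor alpha chain that selected thymocytes need for survival and whose gene is an NF-κB target, went the other way. It was at 247.6, 236.7 and 266.5 CPM in HoilΔCd4 and at 332.1, 349.9 and 328.2 CPM in Sharpin-cpdm cells, with WT at 280.5–294.5 CPM between the mutants. The log2 fold change was −0.44 (SE 0.0509, adjusted p = 6.18e-07). Il2rb, which encodes the beta chain shared by the interleukin-2 and interleukin-15 receptors, was at 157, 165.5 and 153.6 CPM against 139.7, 140.5 and 122.5 CPM and fell just outside the threshold (0.23, SE 0.0735, adjusted p = 0.053). The only other called receptor gene among the 20 tested was Tgfbr1, a TGF-β receptor chain (0.28, adjusted p = 0.00282). These 2 calls were 10% of the receptor list, near the 6.73% called over all genes. In the JAK-STAT list of 19 genes 2 were higher and 2 were lower (21.1%, beside 6.73% of all genes). The higher genes were Cish and Socs1, and the lower ones included Jak3, the kinase gene of the common gamma chain receptors (−0.23, adjusted p = 0.0229). The Jak3 call was lost without HoilΔCd4 mouse 1 or 2 or Sharpin-cpdm mouse 2 or 3.

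**Figure D1:**
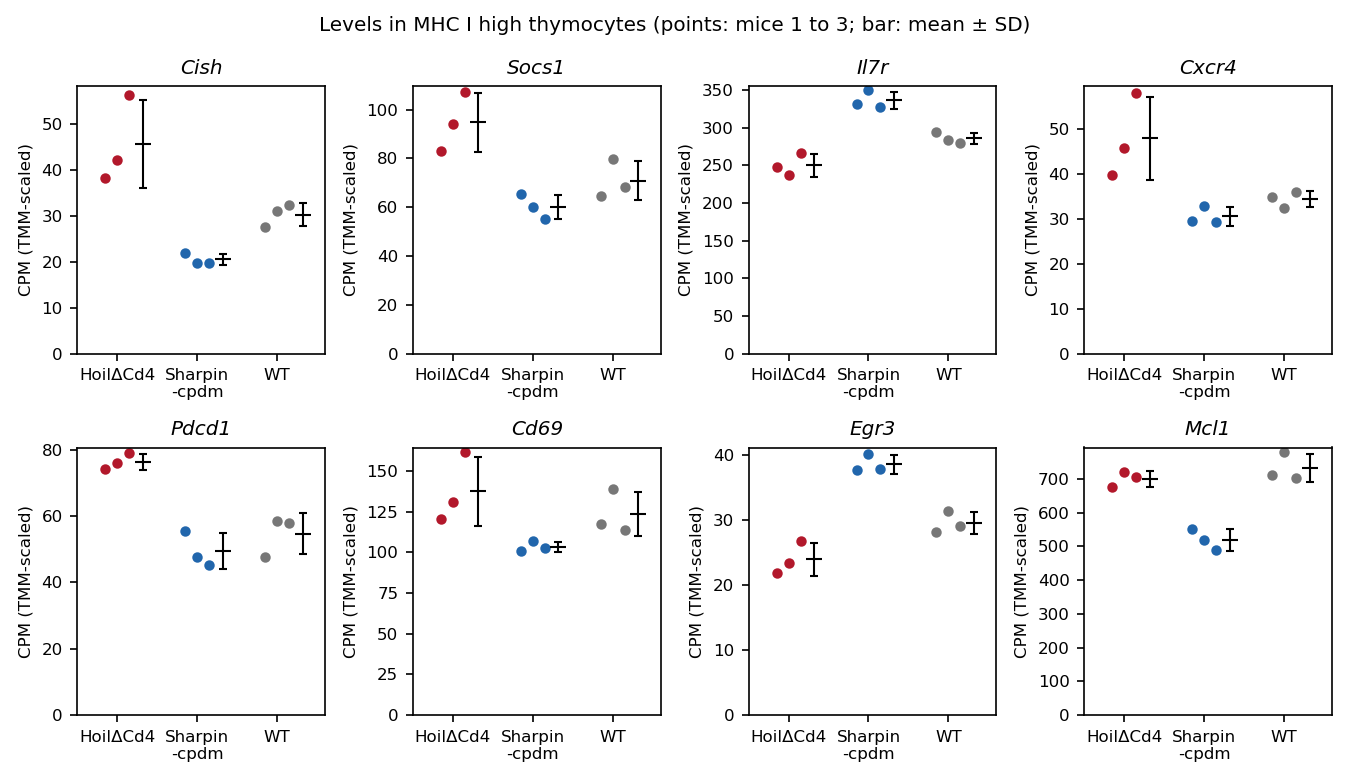
Levels (y axis, TMM-scaled CPM from 0) of 8 signalling genes in MHC I high thymocytes of HoilΔCd4, Sharpin-cpdm and WT mice, with a point per mouse and a bar for the mean ± SD of 3 mice. Cish, Socs1, Cxcr4, Pdcd1, Cd69 and Mcl1 lie higher in every HoilΔCd4 mouse than in every Sharpin-cpdm mouse, and Il7r and Egr3 lie lower.

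Interferon-stimulated genes leaned lower in HoilΔCd4 than in Sharpin-cpdm cells. Of the 53 tested, 48 had an estimate below 0, with a median of −0.27 against 0.001 over all genes. In the test 10 were lower and 1 was higher (20.8%, beside 6.73% of all genes). The transcription factors Irf1, Irf7 and Irf9, which drive or carry the interferon response, were lower. Irf7 was at 177.4, 132 and 149.6 CPM in HoilΔCd4 and 181.1, 221.1 and 209 CPM in Sharpin-cpdm cells, with WT at 193.4–221.5 CPM (log2 −0.47, SE 0.0964, adjusted p = 0.0047). It lies in the distal chromosome 7 segment. Irf9 was at 215.3, 184.8 and 194.2 against 208.3, 232.9 and 237.1 CPM, so HoilΔCd4 mouse 1 overlapped the Sharpin-cpdm samples (−0.22, adjusted p = 0.0189). Irf1 was at 243.8, 205.6 and 201.9 against 257.5, 279.3 and 270.6 CPM (−0.34, adjusted p = 0.000979), and its call held under each alternative. The Irf7 call was lost without HoilΔCd4 mouse 2 or 3 or Sharpin-cpdm mouse 2. That of Irf9 was lost under 7 alternatives, among them edgeR and DESeq2.

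Among the effectors Ifi27l2a, a mitochondrial protein gene induced by type I interferon, was at 86.9, 69.7 and 79.2 CPM in HoilΔCd4 and 119.4, 130.2 and 133.4 CPM in Sharpin-cpdm cells (−0.73, SE 0.124, adjusted p = 0.00116). Oas1a, an oligoadenylate synthetase gene, was at 8.81, 4.09 and 8.93 against 17.2, 17.2 and 12.9 CPM (−1.27, SE 0.279, adjusted p = 0.00736). HoilΔCd4 mouse 2 was the lowest of its group for both and for Irf7, and WT held 97–126.3 CPM of Ifi27l2a and 8.41–12.3 CPM of Oas1a. Oasl1 (−0.67), Zbp1 (−0.29) and the list's antigen presentation genes Tap1 and Psmb9 were also lower. Oas1a, Oasl1 and Zbp1 were named after their values were seen. The gene that went against the list was Ifi47, an interferon-inducible GTPase gene of the chromosome 11 segment, at 257.3, 231.3 and 253.2 against 121.6, 141.4 and 114.5 CPM (0.94, SE 0.0998, adjusted p = 6.91e-06). The 10 lower calls became 2 without HoilΔCd4 mouse 2, 4 without HoilΔCd4 mouse 3, 3 without Sharpin-cpdm mouse 2, 5 without Sharpin-cpdm mouse 3 and 21 without HoilΔCd4 mouse 1, while the median of the list stayed between −0.34 and −0.15 under every alternative.

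The antigen presentation genes of MHC I, on which the cells were sorted, leaned the same way. Of 22 tested, 8 were lower and 1 was higher in HoilΔCd4 cells (40.9%, beside 6.73% of all genes), with a median of −0.12. All 8 heavy chain genes had estimates below 0, and 5 of them were called. H2-K1, a classical heavy chain gene on chromosome 17, was at 1952, 1725 and 1750 CPM in HoilΔCd4 and 2063, 2092 and 2118 CPM in Sharpin-cpdm cells, with WT at 1987–2034 CPM (−0.22, SE 0.0611, adjusted p = 0.0223), a call lost under 8 alternatives that included edgeR and DESeq2. H2-T22 was at 191.5, 157.9 and 162.2 against 196.1, 218.8 and 217.3 CPM (−0.34, adjusted p = 0.000796), and Tap1, a subunit of the peptide transporter, at 450.9, 366.9 and 382.8 against 479.2, 479.2 and 493.9 CPM (−0.30, adjusted p = 0.0017). For each of these genes HoilΔCd4 mouse 1 lay nearest to the Sharpin-cpdm samples. The higher gene was Canx, a chaperone of heavy chain folding (0.24, adjusted p = 0.0151), which lies in the chromosome 11 segment. Heavy chain genes are near-identical in parts and could share reads, since the counting of reads with several matches is not given in the sources used here. The 8 lower calls became 1 without HoilΔCd4 mouse 2, 3 without HoilΔCd4 mouse 3, 2 without Sharpin-cpdm mouse 2 and 5 without Sharpin-cpdm mouse 1.

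**Figure D2:**
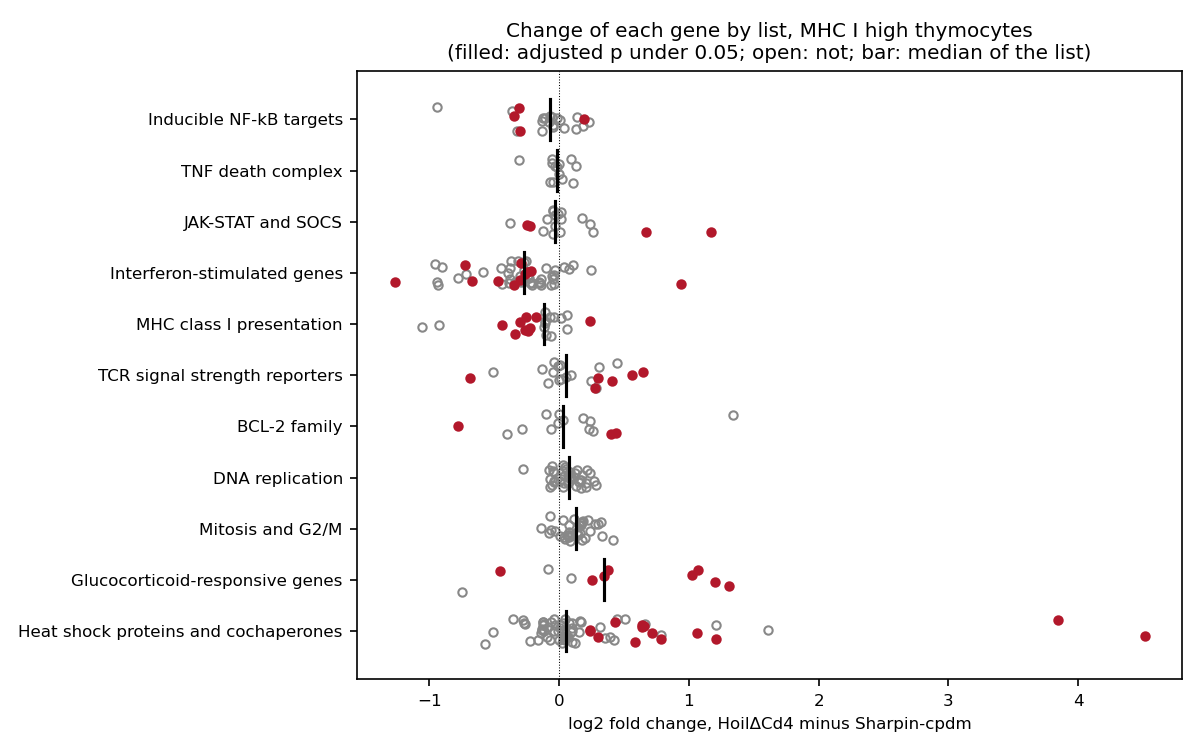
Log2 fold change between HoilΔCd4 and Sharpin-cpdm MHC I high cells (x axis) of every tested gene of 11 lists (y axis), filled where the adjusted p was under 0.05, with a bar at the median of the list and random vertical spread. Interferon-stimulated genes sit left of 0 with a median of −0.27, glucocorticoid-responsive genes right of it with a median of 0.34, and no gene of the TNF death complex, DNA replication or mitosis lists is filled.

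Reporters of T-cell receptor signal strength moved in both directions. Of 21 tested, 5 were higher and 1 was lower in HoilΔCd4 cells (28.6%, beside 6.73% of all genes). Pdcd1, which encodes the inhibitory receptor PD-1, was at 74.1, 76 and 78.9 CPM against 55.6, 47.6 and 45.2 CPM, and WT held 47.5–58.4 CPM (log2 0.65, SE 0.0733, adjusted p = 5e-07). Cd69, the activation marker of the sort, was at 120.2, 130.7 and 161.4 against 100.6, 106.7 and 102.5 CPM (0.41, SE 0.0755, adjusted p = 0.00109). Nr4a1, which encodes Nur77, an immediate early factor, was higher by 0.30 (adjusted p = 0.00294), and Nr4a2 (0.56) and Dusp5 (0.27) were the other higher genes. Egr3, an immediate early factor of the same signal, was instead at 21.8, 23.3 and 26.8 CPM against 37.7, 40.2 and 37.8 CPM, with WT between them at 28.2–31.4 CPM (−0.69, SE 0.0964, adjusted p = 1.64e-05). The 5 higher calls became 2 without HoilΔCd4 mouse 3 or Sharpin-cpdm mouse 2 and 3 with edgeR. For Dusp5 the groups overlapped (59.5–63.8 against 47.3–60.6 CPM), and its call was lost under 10 alternatives, among them edgeR and DESeq2. Of the 18 genes of the receptor complex and its proximal kinases limma, edgeR and DESeq2 called 0, and 4 had an unadjusted p under 0.05 with limma.

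Of the lineage genes Cd8a, the CD8 alpha chain, was lower in HoilΔCd4 cells, at 675.3, 856.9 and 761.8 against 845.5, 998.3 and 999.9 CPM, with HoilΔCd4 mouse 2 inside the Sharpin-cpdm range (−0.31, adjusted p = 0.00736). This call was lost without Sharpin-cpdm mouse 2 or mouse 3. Cd4 did not pass the test (0.16, adjusted p = 0.0817), and of the 12 regulatory T-cell genes limma called 0 (3 at an unadjusted p under 0.05), edgeR 0 and DESeq2 2. Among 18 egress and homing genes, 4 were higher and 1 was lower (27.8%, beside 6.73% of all genes). Cxcr4, the receptor for CXCL12 that holds immature thymocytes in the cortex, was at 39.9, 45.8 and 58.2 against 29.5, 33 and 29.3 CPM (0.64, SE 0.0939, adjusted p = 6.02e-05). Cd24a, which falls as thymocytes mature, was at 68.6, 93.6 and 89.8 against 60.6, 53.5 and 48.2 CPM (0.66, adjusted p = 0.00669). Ccr7, the receptor that draws selected cells to the medulla, was at 318.2, 335.8 and 321.5 against 396.9, 417.9 and 387.4 CPM (−0.31, SE 0.0601, adjusted p = 0.00124). The call of Cd24a was lost without any of HoilΔCd4 mouse 2 or 3 and Sharpin-cpdm mouse 2 or 3, while those of Cxcr4 and Ccr7 held under each alternative. The other higher genes were Qpct (1.5) and P2ry10 (0.41). The 4 higher calls became 1 without Sharpin-cpdm mouse 2 and 2 without HoilΔCd4 mouse 2, HoilΔCd4 mouse 3 or Sharpin-cpdm mouse 3.

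The survival genes Mcl1 and Bcl2 were higher in HoilΔCd4 cells, and the pro-apoptotic gene Pmaip1, which encodes NOXA, was lower. Mcl1 was at 675.3, 720.7 and 706 CPM against 551.2, 517.8 and 488.3 CPM (0.44, SE 0.0569, adjusted p = 4.04e-06). Bcl2 was at 389.4, 371.9 and 354.6 against 283.2, 275 and 287 CPM (0.40, SE 0.0544, adjusted p = 1.03e-05). WT samples were at 703.4–779 CPM for Mcl1, near the HoilΔCd4 samples, and at 307.2–336 CPM for Bcl2, between the mutants. Pmaip1 was low throughout, at 1.9, 1.52 and 1.92 against 2.95, 3.11 and 3 CPM (−0.78, adjusted p = 0.0222), with WT lowest at 1.17–1.32 CPM, and its call was lost without HoilΔCd4 mouse 2 or 3 or Sharpin-cpdm mouse 2 or 3. Among 12 targets of p53, Zmat3 (0.41), Sesn2 (0.60) and Trp53inp1 (0.22) were higher and 0 were lower (0 also at an unadjusted p under 0.05 with limma and in edgeR and DESeq2), and each of the 3 calls was lost without HoilΔCd4 mouse 2. The 3 calls were 25% of this list, beside 6.73% of all genes.

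Glucocorticoid-responsive genes were mostly higher in HoilΔCd4 cells. Of 11 tested, 7 were higher and 1 was lower (72.7%, beside 6.73% of all genes), with a median of 0.34. Tsc22d3, which encodes the glucocorticoid-induced leucine zipper GILZ, was at 112.2, 104.8 and 193.7 CPM against 60.8, 57.1 and 56.7 CPM, with WT at 76.4–109 CPM (1.20, SE 0.244, adjusted p = 0.0116). Ddit4, an inhibitor of mTOR complex 1, was at 264.9, 259 and 424.5 against 171.5, 147.5 and 131.1 CPM (1.07, SE 0.221, adjusted p = 0.0127). HoilΔCd4 mouse 3 stood highest for both, and the groups did not overlap. Fkbp5, a cochaperone of the glucocorticoid receptor, was at 151.8, 189.5 and 191.3 against 134.6, 142.9 and 134.4 CPM, with WT lower than either at 116.6–125.6 CPM (0.38, SE 0.0617, adjusted p = 0.000162). Klf9 (1.02), Cdkn1c (1.31), Nr3c1, the receptor gene itself (0.25), and Tsc22d1 (0.34) were the other higher genes, and Sgk1, a kinase gene, was lower (−0.45, adjusted p = 0.0181). Cdkn1c lies in the distal chromosome 7 segment. Tsc22d3, Ddit4 and Tsc22d1 were named after their values were seen. With edgeR 5 of the 7 higher calls and not the lower call were made. The 7 higher calls became 3 without Sharpin-cpdm mouse 2 and 3 without Sharpin-cpdm mouse 3.

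Of the 14 HSP70 genes tested, 6 were higher in HoilΔCd4 cells, beside 3.71% of all genes. All 14 had estimates above 0, with a median of 0.59, in a list chosen after values were seen. Hspa1a and Hspa1b, which encode the inducible HSP70 proteins and are neighbours on chromosome 17, have near-identical sequences and could share reads. Promoter windows from RefSeq (GRCm38.p6) are shown for them and for Dnaja1, an HSP40 cochaperone gene, because these genes moved together. Each run is the 250 bases before the annotated start, 5′ to 3′ on the strand of the gene, with the heat shock element core GAANNTTC, searched on both strands, in capitals. The windows are chr17:34972157-34972406 (minus strand), chr17:34959239-34959488 (minus strand) and chr4:40722218-40722467 (plus strand).
Hspa1a: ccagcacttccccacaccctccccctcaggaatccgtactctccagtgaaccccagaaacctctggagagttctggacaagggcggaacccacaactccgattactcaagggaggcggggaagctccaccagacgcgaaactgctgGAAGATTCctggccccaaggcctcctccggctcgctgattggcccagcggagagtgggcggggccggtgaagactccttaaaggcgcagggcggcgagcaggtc
Hspa1b: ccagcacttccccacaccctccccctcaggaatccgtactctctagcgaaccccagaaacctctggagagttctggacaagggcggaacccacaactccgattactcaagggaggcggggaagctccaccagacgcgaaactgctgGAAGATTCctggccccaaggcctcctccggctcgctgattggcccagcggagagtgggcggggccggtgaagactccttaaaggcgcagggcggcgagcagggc
Dnaja1: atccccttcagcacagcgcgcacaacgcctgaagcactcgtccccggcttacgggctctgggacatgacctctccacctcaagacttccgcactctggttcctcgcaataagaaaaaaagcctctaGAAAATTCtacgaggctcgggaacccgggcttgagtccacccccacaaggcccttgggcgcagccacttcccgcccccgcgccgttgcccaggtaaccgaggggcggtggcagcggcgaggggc

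The windows of Hspa1a and Hspa1b had the same base at 247 of 250 positions, with the core 104 bases before the start in each. In Dnaja1 the core began 124 bases before the start. Of all 27025 genes with such a window 6.79% held the core, and of the 58 heat shock and cochaperone genes with a window 6 did (10.3%). These letters are a description of the sequence and mark no known site.

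Hspa1a was at 36.1, 44.9 and 30.4 CPM in HoilΔCd4 and at 5.76, 0.572 and 2.28 CPM in Sharpin-cpdm cells, with WT between them at 8.08–9.72 CPM. Hspa1b followed the same order, at 140.4, 163.3 and 115.4 against 26.2, 4.96 and 11.4 CPM, with WT at 41.5–49.4 CPM. The groups did not overlap, and Sharpin-cpdm mouse 2 was the lowest for both genes. The log2 fold changes were 4.51 (SE 0.663, adjusted p = 0.0014) and 3.84 (SE 0.541, adjusted p = 0.00104). Both calls were lost when the 6 samples were fitted alone (adjusted p = 0.0968 and 0.0737), the one alternative that removed them, and over all alternatives adjusted p ranged from 3.78e-07 and 2.48e-07 to these values.

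Of the 42 HSP40 cochaperone genes 5 were higher, beside 3.71% of all genes. Estimates were above 0 for 21 and below 0 for 21 (median 0.004). Dnajb1 was at 156.5, 178.4 and 159.4 CPM against 107.5, 94.5 and 89 CPM, with WT at 129.4–147.9 CPM (0.78, SE 0.0722, adjusted p = 1.64e-08). Dnaja1 was at 87.8, 113.2 and 99.2 against 66.8, 63.8 and 64.9 CPM (0.64, SE 0.0734, adjusted p = 6.48e-07), and Dnaja4 (1.21) and Dnajb4 (0.59) were also called. The HSP90 gene Hsp90aa1 was called (0.64, adjusted p = 0.0258), but Hspa8, which encodes the constitutive HSC70, was not (0.67, SE 0.186, adjusted p = 0.0528). The Hsp90aa1 call was lost under 8 alternatives, among them edgeR and the fits without HoilΔCd4 mouse 2 or 3 or Sharpin-cpdm mouse 1 or 2, and Hspa8 was called under 7, among them DESeq2 and the fit without HoilΔCd4 mouse 1. Hsph1, an HSP110 gene, varied widely within HoilΔCd4 mice, at 95.1, 282.8 and 212.3 CPM against 87.3, 126.7 and 110.7 CPM (0.79, SE 0.357, adjusted p = 0.229). Cirbp, which encodes a cold-inducible RNA-binding protein, was lower in HoilΔCd4 cells, at 99.2, 79.3 and 66.8 against 125.1, 134.2 and 147 CPM (−0.77, SE 0.133, adjusted p = 0.00286). Cirbp was named after its values were seen, and its limma call was lost without HoilΔCd4 mouse 2 (adjusted p = 0.0507). Of the 71 heat shock and cochaperone genes 14 were higher and 0 were lower (2 at an unadjusted p under 0.05 with limma, 0 called by edgeR or DESeq2), with a median of 0.05 over the list. The 14 calls were 19.7% of this list, beside 6.73% of all genes. This list was chosen after values were seen, and its 14 calls became 7 without HoilΔCd4 mouse 2, 8 without HoilΔCd4 mouse 3, 8 without Sharpin-cpdm mouse 2 and 9 without Sharpin-cpdm mouse 3.

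**Figure D3:**
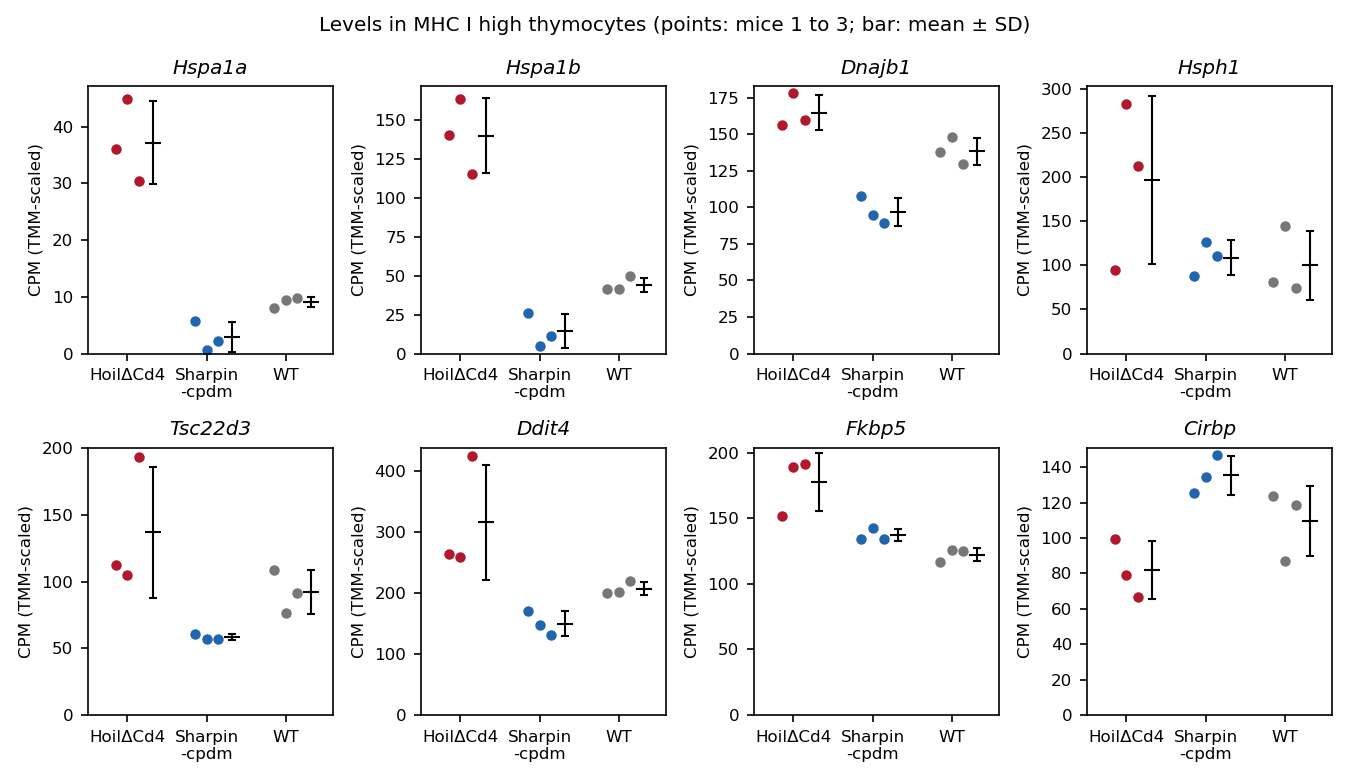
Levels (y axis, TMM-scaled CPM from 0) of heat shock and glucocorticoid-responsive genes in MHC I high thymocytes of HoilΔCd4, Sharpin-cpdm and WT mice, with a point per mouse and a bar for the mean ± SD of 3 mice. WT samples lie between the mutants for Hspa1a, Hspa1b and Dnajb1, HoilΔCd4 mouse 3 is highest for Tsc22d3 and Ddit4, and Hsph1 overlaps between the groups.

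Windows of Socs1, Oas1a and Irf1 are shown in the same way, because the first was higher and the others were lower in HoilΔCd4 cells while all 3 hold a motif of the interferon or STAT family. Capitals mark the interferon response element core GAAANNGAA in Socs1 (chr16:10785537-10785786, minus strand) and Oas1a (chr5:120907526-120907775, minus strand) and the STAT site TTCNNNGAA in Irf1 (chr11:53769764-53770013, plus strand), searched on both strands.
Socs1: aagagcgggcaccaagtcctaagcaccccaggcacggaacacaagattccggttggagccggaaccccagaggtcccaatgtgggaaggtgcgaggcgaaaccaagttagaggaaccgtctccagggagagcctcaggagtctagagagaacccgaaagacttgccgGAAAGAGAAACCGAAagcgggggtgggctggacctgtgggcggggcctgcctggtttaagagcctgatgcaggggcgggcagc
Oas1a: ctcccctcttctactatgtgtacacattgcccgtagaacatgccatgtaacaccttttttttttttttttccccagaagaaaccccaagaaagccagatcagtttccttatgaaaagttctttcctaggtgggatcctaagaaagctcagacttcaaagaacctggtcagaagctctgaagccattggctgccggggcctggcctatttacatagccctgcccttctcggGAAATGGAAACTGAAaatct
Irf1: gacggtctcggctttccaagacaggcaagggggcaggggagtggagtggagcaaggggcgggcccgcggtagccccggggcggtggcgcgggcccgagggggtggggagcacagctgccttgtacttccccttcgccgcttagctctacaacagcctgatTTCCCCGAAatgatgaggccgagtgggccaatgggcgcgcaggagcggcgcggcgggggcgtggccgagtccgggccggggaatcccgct

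In Socs1 and in Oas1a 2 copies of the core overlap, beginning 83 and 77 bases before the start in Socs1 and 20 and 14 bases before it in Oas1a. Of the 38 interferon-stimulated genes with a window 18 held this core (47.4%), against 7.16% of all genes, and 9 held the STAT site (23.7%), against 7.14%. Cish, the called gene of the STAT5 feedback, has a window without the STAT site, which says only that these letters are not in it.

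Genes of proliferation and metabolism were read against the 6.73% called over all genes. Of the 40 DNA replication genes limma, edgeR and DESeq2 called 0, and 7 had an unadjusted p under 0.05 with limma, beside 2715 of all 12798 genes. Of the 34 mitosis genes 0 were called and 0 had an unadjusted p under 0.05 with limma, although 29 had estimates above 0. Of 24 replication-dependent histone genes tested, 6 were lower in HoilΔCd4 cells (25%), with a median of −0.92. H1f3, a linker histone gene, was at 2.43, 2.8 and 2.5 CPM against 3.59, 5.15 and 7.35 CPM (−0.97, adjusted p = 0.0181). These transcripts lack poly(A) tails and were at low counts, and no histone call was left without HoilΔCd4 mouse 2 or without Sharpin-cpdm mouse 2. Cpt1a, which admits fatty acids to mitochondria, was at 68.6, 84 and 75.8 CPM against 44.9, 51.1 and 54 CPM, with WT lower than either at 36.1–45.1 CPM (0.62, SE 0.0919, adjusted p = 7.44e-05). Among 26 genes of glucose uptake and glycolysis Eno3 (0.38) and Ldha (0.21, adjusted p = 0.0342) were higher, and among 27 sterol and fatty acid synthesis genes Dhcr7 (0.40) and Scd2 (0.27) were higher and Srebf1 (−0.19, adjusted p = 0.0488) was lower, shares of 7.69% and 11.1%. The Ldha call was lost under 8 alternatives and the Srebf1 call under 12. Of 76 cytosolic ribosomal protein genes, a list chosen after values were seen whose pseudogene copies could share reads, 68 had estimates below 0 (median −0.11) and 4 were called lower (5.26%).

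Position in the genome went with the calls. Between 120 and 150 Mb of chromosome 7, 50 of 243 genes tested were called (20.6%, 23 higher and 27 lower), and between 40 and 60 Mb of chromosome 11, 27 of 137 (19.7%, 15 higher and 12 lower). Outside these segments the share was 6.31%, and it was 6.06% in the 10 Mb around Sharpin and 5.98% in those around Rbck1. The distal chromosome 7 segment held 21 of the 124 genes called with at least a 2-fold difference. The segments were named because the rule for named genes asked for windows of 10 Mb with at least 5 such genes, and their bounds were widened to neighbouring windows after values were seen. A strain difference in these segments was not tested.

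For most of the genes described from there the WT level was near the HoilΔCd4 level. Tnfrsf26 (chromosome 7, 143607685 to 143627845) was at 21.5, 21.4 and 18.3 CPM in HoilΔCd4 and at 0, 0 and 0.143 CPM in Sharpin-cpdm cells, with WT at 23.7–25.8 CPM. The HoilΔCd4 samples held 757 reads in all and the Sharpin-cpdm samples 2, a depth-scaled ratio of 467 (95% interval 129–3860, counting error only). Plekha1, a phosphoinositide-binding adaptor gene (chromosome 7, 130860551 to 130913494), was at 97, 97.1 and 92.1 against 232.8, 223.7 and 227.7 CPM, with WT at 86.4–97 CPM (−1.25, SE 0.0629, adjusted p = 4.04e-15). Its neighbours Htra1, a serine protease gene (1 read in HoilΔCd4 against 219 in Sharpin-cpdm samples), and Dmbt1 (0.576–1.44 against 134.7–177.8 CPM) were almost absent from HoilΔCd4 and WT cells. Tspan32, a tetraspanin gene, was at 123.4, 110.4 and 120.9 against 45.5, 45.7 and 43.8 CPM, and WT samples at 138.4–144 CPM were higher than both mutants (1.38, SE 0.0832, adjusted p = 7.76e-13). Cln3, which encodes a lysosomal membrane protein, was at 63.5, 71.3 and 61.2 against 19.6, 20.3 and 22.6 CPM (1.65, SE 0.0882, adjusted p = 1.42e-14). Cln3 overlaps Apobr (4.07), and without the strand setting their reads cannot be told apart.

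Tnfrsf22 (2.92) and Tnfrsf23 (59 reads against 2) are paralogs of Tnfrsf26 and could share its reads. Gdpd3, a lysophospholipase gene, was at 6.68, 6.06 and 6.34 against 125.1, 161.9 and 318.3 CPM (−4.83, SE 0.265, adjusted p = 7.31e-08). In the chromosome 11 segment G3bp1, a stress granule protein gene, was at 210.7, 234.8 and 224.5 against 153.9, 160.5 and 152.1 CPM (0.52, SE 0.0543, adjusted p = 7.88e-08), and Lyrm7, a mitochondrial assembly factor gene, at 6.83, 6.29 and 5.09 against 15.4, 15.6 and 17.5 CPM (−1.41). Olfr56, an olfactory receptor gene, had 109 reads against 1, a ratio of 134 (23.6–5360, counting error only). Outside the segments Rab4a, an endosomal recycling GTPase gene on chromosome 8, was at 13.4, 11.1 and 13 against 1.66, 1.78 and 1.86 CPM (2.75, SE 0.154, adjusted p = 4.07e-14).

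Marchf6 (chromosome 15, 31455899 to 31531082), a ubiquitin ligase gene of the endoplasmic reticulum, showed the other arrangement. It was at 110.6, 114.3 and 108.5 CPM in HoilΔCd4 and 203.5, 198.1 and 179.5 CPM in Sharpin-cpdm cells, and WT samples at 184.4–208.5 CPM lay with the latter (−0.81, SE 0.061, adjusted p = 6.93e-11). Nnt, which encodes the mitochondrial transhydrogenase and was named after its values were seen, had a level of its own in each genotype. It was at 62.5–65.8 CPM in HoilΔCd4, 81.2–85.9 CPM in Sharpin-cpdm and 39.1–46.4 CPM in WT cells (−0.40, SE 0.0734, adjusted p = 6e-04).

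**Figure D4:**
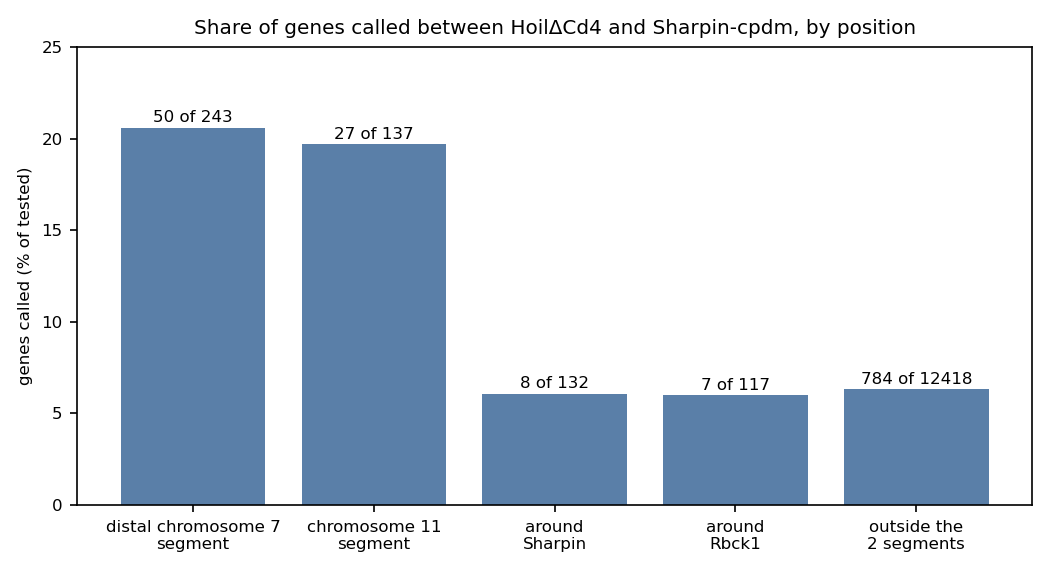
Share of tested genes called between the mutants (y axis, percent from 0) in the distal chromosome 7 segment, the chromosome 11 segment, the 10 Mb around each of Sharpin and Rbck1, and outside the 2 segments, with the number called of those tested over each bar. The segments reach 20.6% and 19.7% against 6.31% outside them.

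In the earlier MHC I low fraction of the same mice, 1213 genes differed between the mutants (9.48%; 655 higher and 558 lower in HoilΔCd4 cells). The fractions shared 350 called genes of like direction, which is 40.8% of the MHC I high and 28.9% of the MHC I low calls, and 1 was called in opposite directions. These fractions come from the same animals. Whether the difference itself changed with maturation was tested directly, as the MHC I high minus the MHC I low difference, and 103 genes passed (0.805%, 53 positive and 50 negative). Among them was Cish, which went from 0.22 (MHC I low, adjusted p = 0.308) to 1.17 (MHC I high), a difference of 0.95 (adjusted p = 0.00131). Bcl2 went from −0.10 to 0.40 (difference 0.49, adjusted p = 0.000291) and Pdcd1 from 0.20 to 0.65 (difference 0.45, adjusted p = 0.0261). Cd8a turned from 0.20 in MHC I low, where it was not called, to −0.31 (difference −0.51, adjusted p = 0.00892). The median of the 53 interferon-stimulated genes was −0.41 in MHC I low cells, with 20 called lower, beside 558 of all 12798 genes. That of the 34 mitosis genes was 0.64, with 17 called higher, beside 655 of all genes. Only 1 of these interferon-stimulated genes and 2 of these mitosis genes passed the direct test of the change. Calls in 1 fraction are therefore not read as a change between fractions. With edgeR the direct test of the change between fractions called 10 genes.

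**Figure D5:**
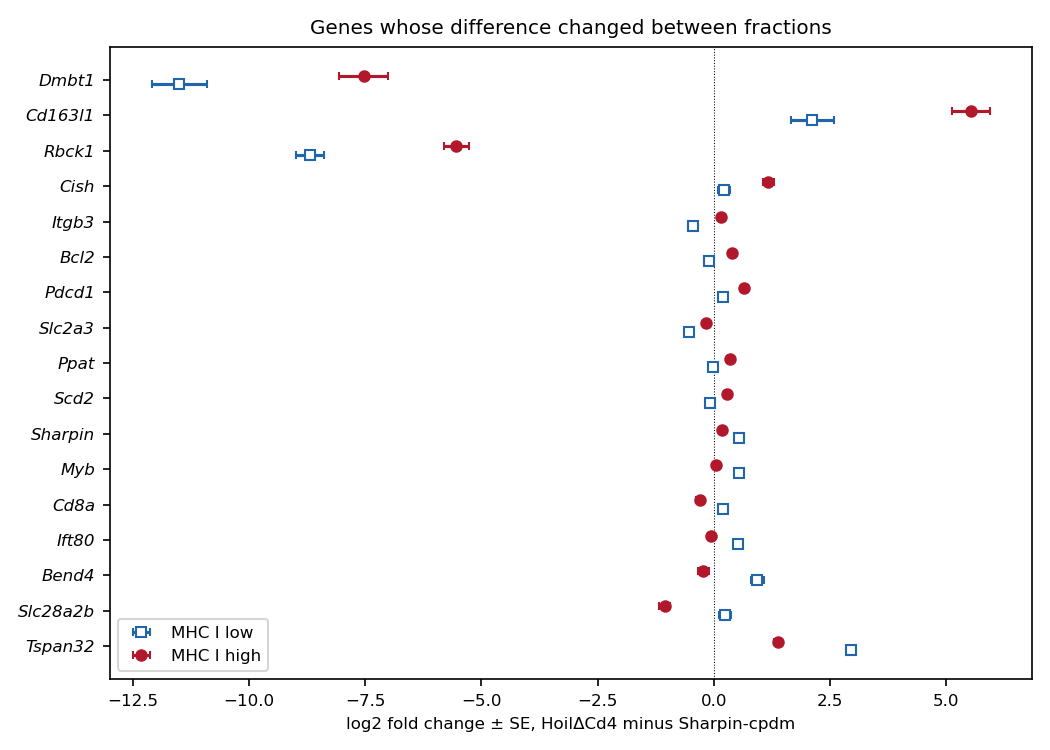
Log2 fold change ± SE between HoilΔCd4 and Sharpin-cpdm cells (x axis) in the MHC I low (open squares) and MHC I high fraction (filled circles) for the 17 named genes whose difference changed between fractions. Cish lies at 0.22 and 1.17, Slc28a2b at 0.24 and −1.05, and Tspan32 at 2.95 and 1.38.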

How the data were processed

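RNA of sorted CD69+ MHC I low and MHC I high thymocytes was sequenced single-end. The authors aligned reads to mm10 (subread, from Rsubread), summarised them over genes (featureCounts, inbuilt RefSeq annotation), and the deposited values are raw counts per sample, not normalized or pooled. Versions, strand and multi-mapping settings are not given in the sources used here. Entrez IDs were matched to RefSeq of GRCm38.p6 (25275 of 27179 genes, the other 1904 holding 0.655% of the counts).

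Following the methods of the study, genes with at least 0.5 CPM in 3 samples were kept, without chromosome Y genes, Xist and predicted genes. Counts were TMM-scaled (factors 0.9873–1.015) and transformed to log2 CPM (prior count 1). The 18 samples were fitted in 1 limma model of 6 groups with sample weights, the mouse as a random block (correlation 0.224) and robust, trended empirical Bayes. Adjusted p-values are Benjamini-Hochberg over 12798 genes, called under 0.05. R 4.3.3, limma 3.58.1, edgeR 4.0.16 and DESeq2 1.42.0 were used, and the tests were tried on simulated data. The 6 samples compared come from separate mice, and the fractions of a genotype from the same mice. The labels do not say that replicate numbers pair mice of different genotypes, and the numbers were not used as pairs. Deviations of same-numbered mice correlated at 0.0524, 0.0191 and 0.00623, and those of the other pairs between −0.0375 and 0.0189. Whether same-numbered mice shared a batch was not tested. Replicates of a group differed by more than sampling noise (chi-square per degree of freedom 3.95–6.76). Intervals of count ratios are 95% and cover counting error only.

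The members and lists were chosen with earlier results of these data known. Named were the LUBAC genes, per direction the 10 called genes of smallest p and 5 of largest fold without overlap between groups, up to 4 called genes per list and direction, genes the study names, sort markers, up to 6 genes of windows with at least 5 called 2-fold genes, and the 5 smallest p per direction of the change between fractions. Alternatives were edgeR, DESeq2, other scalings, filters and prior count, no weights, no block, a fixed block, WT left out, Xist as covariate, each mouse left out, and, added after seeing the data, the 6 samples alone. The count table of the whole series held the same values as the sample files and was not used. Some results are not reported here.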

Additional observations from a re-analysis of the deposited data

Results flagged for a closer look

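For 17 named genes the difference between HoilΔCd4 and Sharpin-cpdm cells changed between the MHC I low and MHC I high fractions, by limma's test of the difference itself (adjusted p under 0.05). The log2 values below are the MHC I high minus the MHC I low difference.

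The change was positive for 10 genes. Cish (0.95), Bcl2 (0.49), Pdcd1 (0.45), Itgb3 (0.62), Slc2a3 (0.38), Ppat (0.37) and Scd2 (0.37) had the more positive difference in MHC I high cells. Cd163l1 changed by 3.41, on 276 HoilΔCd4 and 4 Sharpin-cpdm reads in MHC I high cells. Dmbt1 changed by 3.97 and Rbck1 by 3.15, genes that were strongly lower in HoilΔCd4 cells of both fractions. The size of the Dmbt1 change rests on HoilΔCd4 levels near 0, at 0–0.145 CPM in MHC I low and 0.576–1.44 CPM in MHC I high cells. In Sharpin-cpdm cells Dmbt1 was at 286.1–329.9 CPM in MHC I low and 134.7–177.8 CPM in MHC I high cells. The Rbck1 level in HoilΔCd4 cells was 0.271–0.779 CPM in MHC I low and 3.72–8.94 CPM in MHC I high cells.

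The change was negative for 7 genes, which were Tspan32 (−1.57), Slc28a2b (−1.29), Bend4 (−1.16), Ift80 (−0.58), Cd8a (−0.51), Myb (−0.48) and Sharpin (−0.36). Slc28a2b, a nucleoside transporter gene, was at 28.2, 34.3 and 22 CPM in HoilΔCd4 and at 55.1, 59.9 and 56.5 CPM in Sharpin-cpdm MHC I high cells, and its difference in MHC I low cells was not called (0.24, adjusted p = 0.285). Ift80, Bend4 and Myb were called in MHC I low cells (0.52, 0.93 and 0.53) and had MHC I high estimates of −0.06, −0.23 and 0.05.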

How the results depend on the processing

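The counts of called genes were 861 in MHC I high, 1213 in MHC I low cells and 103 for the change between fractions. In MHC I high cells edgeR gave 518 and no sample weights 516. Leaving out each mouse gave 324–958 in MHC I high, 707–1197 in MHC I low and 18–165 for the change between fractions, which is thus the least stable of them. That last count was 10 with edgeR, 67 with DESeq2, 25 without a filter, 177 with at least 10 counts in every sample, 13 without the mouse block, 22 with the mouse number as a fixed replicate block and 199 with WT left out. With that fixed block 1097 and 1330 genes were called in MHC I high and low cells, although the labels give no pairing across genotypes. With Xist as a covariate the counts were 1154, 1294 and 125. The 6 samples alone, added after seeing the data, gave 726. The cause of these changes was not tested.

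Of 114 named genes 93 were called. Over 24 alternatives 55 of these kept the call wherever tested and 38 lost it under at least 1, while 7 uncalled genes gained one. No called gene changed sign. The signs of 5 uncalled genes did, all near 0. Birc3 was 0.00681 with edgeR, 0.00967 with DESeq2 and 0.00318 without weights. Il2ra was −0.00765 with at least 10 counts, −0.0292 with Xist and −0.015 in the 6 samples alone. Leaving out each mouse gave −0.0648 to 0.0603 for Birc3, −0.0476 to 0.239 for Il2ra, −0.103 to 0.0718 for Bcl6, −0.0808 to 0.0359 for Nfkbie and −0.0101 to 0.0687 for Nfkbia.

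Low counts limit Tnfrsf23, Olfr56, Htra1 and the histone genes, and 3 mice a side limit all results, since 1 mouse moved the count of calls in MHC I high cells by over 1.5 times.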
